A study of Danio rerio with 12 samples.

Results

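Extraocular muscle (EOM), the group of small muscles that move the eye, was compared between desmin mutant and wild type (WT) adult zebrafish by messenger RNA sequencing. The comparison used the 6 libraries whose labels name EOM, of 12 libraries in the series, which also holds trunk muscle of the same genotypes. Of 32520 annotated genes, 18804 had enough reads in these libraries to be tested, and they are described below by function. The mutant group consisted of 3 libraries of EOM from desma-/-;desmb-/- fish, which carry mutations in both zebrafish desmin genes. The WT group consisted of 3 libraries of EOM from fish of the AB strain, taken from the line in which the mutant was made. Both groups thus have that strain background, but whether other variants differ between them was not tested. All fish were 5 months old, and each library was made from 400 ng of total RNA by poly-A selection with a stranded kit. The design text of the series speaks of a knock-down and of several time points, whereas the sample labels give a mutant at a single age, and the labels were followed. The titles number the libraries as groups 1 to 3 and do not say how many fish each holds. The p-values therefore measure the spread between these libraries only, a spread that the fits below pool across genes, partly or almost wholly.

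Desmin is the main intermediate filament protein of muscle, where it ties the Z-discs of neighbouring myofibrils to each other, to the cell membrane, to nuclei and to mitochondria. Loss or mutation of desmin causes myopathy in humans and in model animals. EOM is known for being spared in several muscular dystrophies, and the series title names fhl2b, whose product, made up of LIM domains, belongs to the FHL family and binds sarcomere and signalling proteins. In bulk tissue, fewer cells of a type and less RNA per cell cannot be told apart.

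The libraries held 76538324, 64544544 and 77035539 gene-strand reads in mutant EOM and 83070265, 90771297 and 65861413 in WT EOM. The tissue label was checked with 23 posterior Hox genes, which mark the trunk: their summed normalised read count (CPM, scaled to library size) was 0.0157 to 0.309 in mutant EOM and 0.139 to 0.266 in WT EOM, against 77.1 to 127.9 CPM in the trunk libraries. The libraries numbered 3 stood apart in both genotypes. Reads outside genes made up 9.24% in mutant library 3 and 8.93% in WT library 3, against 4.43 to 4.85% in the other EOM libraries. The summed level of 67 ribosomal protein genes was 38188 CPM in mutant library 3, against 130650 and 127610 CPM in mutant libraries 1 and 2, and 36320 CPM in WT library 3, against 142820 and 76021 CPM in WT libraries 1 and 2. Mutant library 2 stood apart as well, with 19431 genes detected, against 22248 and 24467 in mutant libraries 1 and 3 and 22454 to 23985 in the WT libraries. Libraries with the same number deviated together from their group means, with correlations across genes of 0.43, 0.39 and 0.68 for numbers 1, 2 and 3. Of the pairs with different numbers, mutant library 2 and WT library 1 also correlated (0.27), and the others were at -0.62 to -0.16. Deviations from a group mean cancel out within the group, which by itself lowers the values of unlike numbers. What libraries of the same number share is not given in the labels. Because of these correlations the comparison is also given in a fit that takes the library number as a replicate block. That fit sets each mutant library against the WT library of the same number.

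The targeted gene was low in every mutant library. Levels of desma (ENSDARG00000058656.6), the desmin gene that EOM expresses, were 31.3, 28.7 and 22.5 CPM in mutant EOM, against 1623, 923 and 609.9 CPM in WT EOM. All mutant libraries thus lay far below all WT libraries, with a log2 fold change of -5.26 (SE 0.66, edgeR quasi-likelihood test, adjusted p = 8.67e-05). Without mutant library 1 the log2 fold change was -5.36 and the adjusted p was 0.102. Transcripts of the second desmin gene, desmb (ENSDARG00000005221.8), were almost absent in both genotypes, with 6 reads over the 3 mutant libraries and 17 reads over the 3 WT libraries, too few to be tested.

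The gene named in the series title, fhl2b (ENSDARG00000003991.8), stood at 263, 265 and 302 CPM in mutant EOM, against 127, 118 and 152 CPM in WT EOM. The groups did not overlap and each mutant library exceeded the WT library of its number. The log2 fold change of 1.06 (SE 0.48) did not pass the threshold without the block (adjusted p = 0.837) and did with it (1.07, SE 0.33, adjusted p = 0.0404). That call was lost when any of the 3 pairs was left out, with adjusted p-values of 0.216 to 0.314, and with no filter on low counts (adjusted p = 0.0594). Its paralog fhl2a was at 242, 154 and 98.0 CPM in mutant EOM, against 134, 100.3 and 93.2 CPM in WT EOM, groups that overlapped and did not pass in either fit. For fhl5, another member of the family, the values were 1673, 1099 and 566 CPM in mutant EOM and 1126, 803 and 654 CPM in WT EOM, again overlapping.

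**Figure D1:**
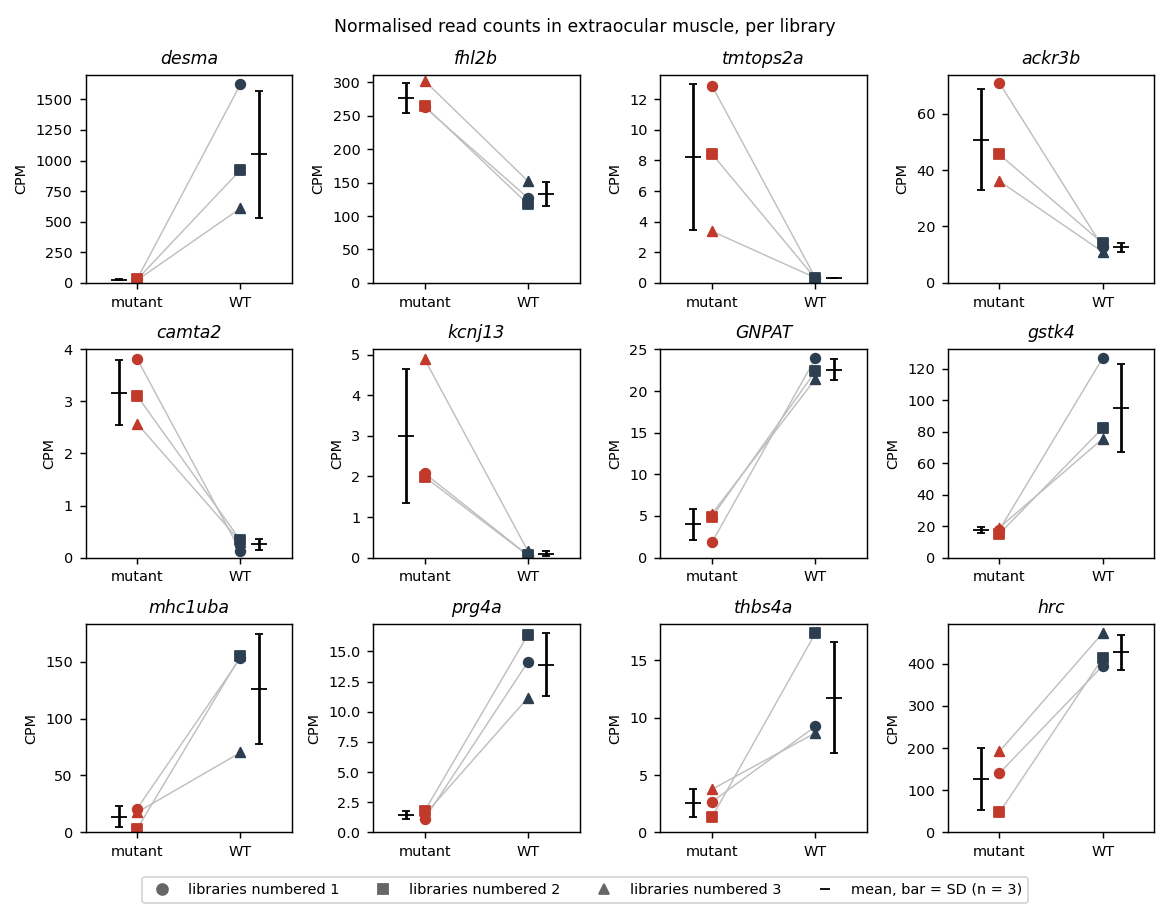
Normalised read counts (CPM, linear axes from 0) of 12 genes in the 3 mutant and the 3 WT EOM libraries. Symbols give the library number, grey lines join libraries of the same number, and black marks give the mean ± SD (n = 3). For desma, GNPAT, gstk4, mhc1uba, prg4a, thbs4a and hrc all mutant libraries lie below all WT libraries, and for fhl2b, tmtops2a, ackr3b, camta2 and kcnj13 all lie above them.

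Across all genes the mutant EOM differed from WT EOM in few transcripts, and most of these were scarce. Of the 18804 genes tested, 57 passed an adjusted p of 0.05, or 0.303%, with 23 higher (0.122%) and 34 lower (0.181%) in the mutant. The group mean was below 10 CPM in the higher group for 43 of the 57 and above 50 CPM for 4. Every one of the 57 changed by at least 2.02 on the log2 scale, and none had overlapping groups, compared with 11.0% of all tested genes whose groups did not overlap. A call at such a size with 3 libraries per group nearly entails this, so the lack of overlap is no separate support. The count depended on mutant library 1: without it no gene passed, although 1259 had an unadjusted p below 0.05, and DESeq2 then called 94. With the replicate block 582 genes passed (3.10%), 203 higher (1.08%) and 379 lower (2.02%), and these included all 57. That count was 157 without the libraries numbered 1, 391 without those numbered 2 and 332 without those numbered 3. Every gene that passed with the block changed by at least 1.03 on the log2 scale. The blocked fit pools the spread across genes almost wholly, so its SE varied little between abundant genes (0.34 for eef1b2, 0.32 for dnpep and col4a1). It was 0.34 for ecrg4a, with 27.4, 20.8 and 3.70 CPM in mutant EOM and 28.7, 5.83 and 3.12 CPM in WT EOM. For fhl2b, which was higher in the mutant in every pair, it was 0.33. Blocked p-values and SE therefore carry little about a gene's own spread. Among abundant genes a call depends mostly on the size of the change. A call with the block does not by itself show that the 3 pairs agreed. The median log2 fold change over all tested genes was 0.03.

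**Figure D2:**
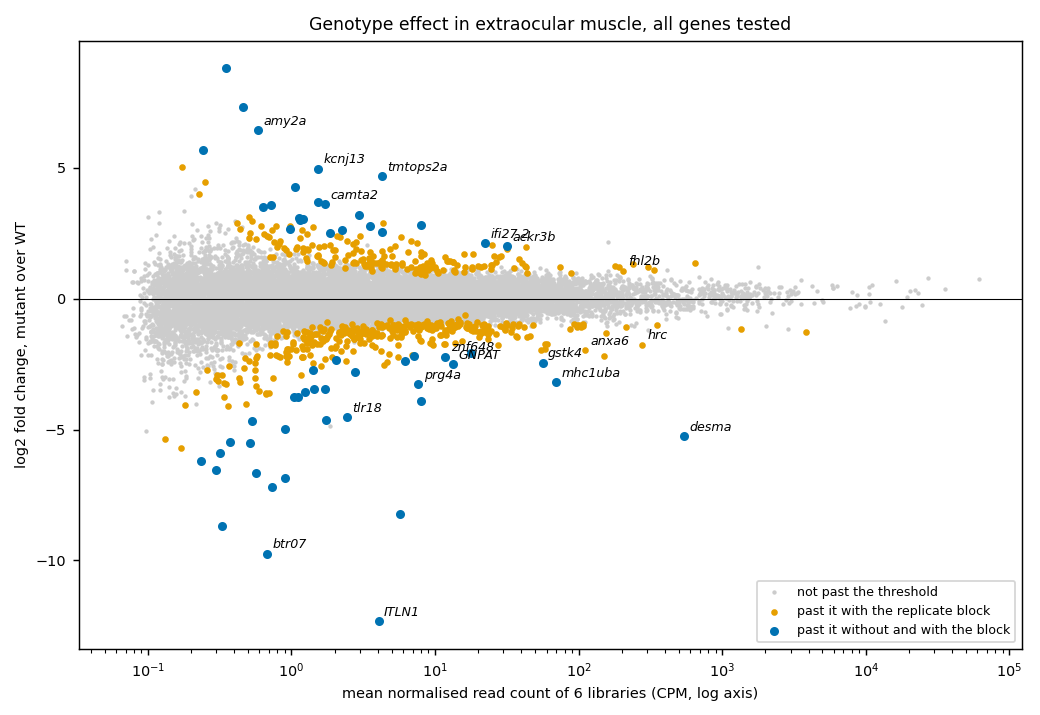
Log2 fold change, mutant over WT, of all 18804 genes tested in EOM against their mean level over the 6 libraries (CPM, log axis). Blue points passed the adjusted threshold without and with the replicate block (57 genes), orange points only with it (525 genes), and most blue points lie below 10 CPM, with desma the clear exception among the abundant genes.

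The transcripts that rose in mutant EOM included those of a chemokine receptor, an interferon-inducible gene and an opsin. The scavenger receptor gene ackr3b (ENSDARG00000058179.6), whose product removes the chemokine Cxcl12 from tissue, had 70.8, 45.5 and 36.0 CPM in mutant EOM, against 12.7, 14 and 11 CPM in WT EOM (log2 fold change 2.02, SE 0.45, adjusted p = 0.0452). Its lowest mutant value was well above its highest WT value. The interferon-inducible gene ifi27.2 had 42.8, 47.0 and 19.0 CPM in mutant EOM, against 11.8, 7.13 and 5.90 CPM in WT EOM (2.13, SE 0.47, adjusted p = 0.0452). The non-visual opsin gene tmtops2a (ENSDARG00000061515.7) had 12.9, 8.43 and 3.37 CPM in mutant EOM, against 0.338, 0.290 and 0.335 CPM in WT EOM (4.67, SE 0.57, adjusted p = 8.67e-05). WT libraries were thus almost without this transcript. Marker genes of photoreceptors and retina did not move with it: their summed level was 51.0 to 67.5 CPM in mutant EOM and 56.1 to 98.7 CPM in WT EOM, and 7 of 26 were higher in the mutant.

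Other rises concerned ion channels, transcription and lipid handling. The inward rectifier potassium channel gene kcnj13 (ENSDARG00000043443.7) had 2.08, 1.99 and 4.89 CPM in mutant EOM, against 0.0615, 0.0537 and 0.162 CPM in WT EOM (4.97, SE 0.68, adjusted p = 2.35e-04). The transcriptional activator gene camta2 (ENSDARG00000092799.2), known in mouse heart for driving growth-related transcription, had 3.82, 3.11 and 2.57 CPM in mutant EOM, against 0.123, 0.333 and 0.303 CPM in WT EOM (3.62, SE 0.58, adjusted p = 0.00179). Both genes were scarce in every WT library. A gene listed in capitals as NPC2, which in mammals encodes a lysosomal cholesterol carrier, had 23.2, 12.3 and 6.83 CPM in mutant EOM, against 2.94, 2.25 and 0.779 CPM in WT EOM (2.83, SE 0.54, adjusted p = 0.0113). Reads shared with other copies of this gene would be missing from the counts, so its level is uncertain. The gene crym, which encodes a thyroid hormone binding protein, had 10.6, 6.21 and 5.21 CPM in mutant EOM, against 1.86, 0.740 and 1.18 CPM in WT EOM (2.54, SE 0.50, adjusted p = 0.0158).

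At the low end of expression, amy2a, an amylase gene, was read in all mutant libraries (0.967, 1.5 and 1.01 CPM) and in WT library 3 alone among the WT libraries (0, 0 and 0.0325 CPM; adjusted p = 0.00124). The gene zgc:172253 had 0.528, 0.682 and 0.908 CPM in mutant EOM and no read in any WT library, at least 19.1-fold higher when 3 reads per WT library are taken as the floor (adjusted p = 0.00194). The mitochondrial gene tmem186 rose by 3.57 (SE 0.74, adjusted p = 0.0248), and the remaining rises among the 12 largest were those of zgc:198329, grna.2, si:dkey-251i10.2, ms4a17a.1 and si:ch211-66i8.3.

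The transcripts that fell formed a longer list that held genes of lipid metabolism, defence and tendon. GNPAT (ENSDARG00000074401.4, listed in capitals), whose human counterpart catalyses the first step of plasmalogen synthesis in peroxisomes, had 1.85, 4.89 and 5.26 CPM in mutant EOM, against 23.9, 22.3 and 21.4 CPM in WT EOM (-2.49, SE 0.47, adjusted p = 0.00967). The glutathione transferase gene gstk4 had 17.7, 15.2 and 19.1 CPM in mutant EOM, against 127, 82.4 and 75.6 CPM in WT EOM (-2.45, SE 0.46, adjusted p = 0.00871). For both genes every mutant library lay well below every WT library. The acyl-CoA thioesterase gene acot15, which passed as the only one of 50 tested genes of fatty acid uptake and oxidation, had 0.369, 0 and 0.0445 CPM in mutant EOM, against 4.02, 3.67 and 2.4 CPM in WT EOM (-4.65, SE 0.81, adjusted p = 0.00517). Falls were also seen for the lipid transporter gene abca12 (-4.99, SE 0.79, adjusted p = 0.00178) and for acbd4, whose product binds acyl-CoA (-3.44, SE 0.63, adjusted p = 0.00801). The gene taco1, which in humans is needed to translate a mitochondrial subunit of cytochrome oxidase, fell by 3.44 (SE 0.61, adjusted p = 0.00551).

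Some genes of innate defence and antigen display fell. ITLN1 (ENSDARG00000095082.5, listed in capitals), an intelectin gene whose product binds microbial sugars, had no read in any mutant EOM library, against 12.5, 6.05 and 5.78 CPM in WT EOM, at least 178-fold lower with 3 reads per mutant library as the floor (adjusted p = 1.24e-07). The genes btr07, of a fish family related to TRIM genes, and si:dkey-33m11.7 were not read in any mutant library either, which puts them at least 29.9-fold and 14.6-fold lower. The Toll-like receptor gene tlr18 had 0.317, 0 and 0.267 CPM in mutant EOM, against 2.46, 6.84 and 4.76 CPM in WT EOM (-4.54, SE 0.73, adjusted p = 0.00194). These transcripts were thus nearly or fully missing from the mutants. The class I histocompatibility gene mhc1uba had 20.9, 3.13 and 17.6 CPM in mutant EOM, against 153, 155 and 70.17 CPM in WT EOM (-3.18, SE 0.59, adjusted p = 0.00801), and mhc1zda had 8.23, 3.3 and 8.80 CPM in mutant EOM, against 23.7, 28.4 and 33.8 CPM in WT EOM (-2.08, SE 0.46, adjusted p = 0.0454). Reads shared within this gene family are left out of the counts, so the levels of its single members are uncertain. In trunk the log2 fold changes were -9.94 for ITLN1, -7.30 for btr07, -2.58 for mhc1uba, -1.36 for mhc1zda and -1.25 for tlr18, none past the threshold there. Whether these falls go with the loss of desmin or with other variants that differ between the groups was not tested.

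Several receptor and motor genes with little expression in WT EOM fell further. The Wnt receptor gene fzd9a had 0.211, 0.152 and 0.0979 CPM in mutant EOM, against 2.38, 2.89 and 0.920 CPM in WT EOM (-3.76, SE 0.66, adjusted p = 0.00517). The class 5 unconventional myosin gene myo5b, a motor of vesicle transport, had 0.211, 0.0379 and 0.178 CPM in mutant EOM, against 2.29, 2.02 and 1.57 CPM in WT EOM (-3.74, SE 0.67, adjusted p = 0.00574). For the serotonin receptor gene htr2aa the values were 0.0176, 0 and 0.0356 CPM in mutant EOM and 1.05, 1.16 and 0.844 CPM in WT EOM (-5.51, SE 0.92, adjusted p = 0.00268). Values in the mutants were close to the floor in each case. The relaxin family receptor gene rxfp2a (-2.35, SE 0.53, adjusted p = 0.0467) and ccdc39, a gene of motile cilia (-3.55, SE 0.74, adjusted p = 0.0256), passed as well. The other falls among the 12 largest, cdh29, pm20d1.1, cyp2x7, lingo2b, si:ch211-234p6.9 and si:dkey-266f7.5, had means of at most 0.0176 CPM in mutant EOM and of 0.594 to 1.78 CPM in WT EOM.

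Function lists were then read against the background of all tested genes, of which 1.08% rose and 2.02% fell with the replicate block. These lists were composed with earlier results of the series known, so their counts are descriptions. Genes of phagocytes and other leukocytes had the highest median log2 fold change of the 38 lists, 0.65 over 42 tested genes, 34 of them higher in the mutant, compared with 0.03 and 52.0% over all tested genes. Without the block none of the 42 passed (edgeR; 13 had an unadjusted p below 0.05, compared with 5.37% of all tested genes), and with it 7 rose and 1 fell. The counts were also 7 and 1 with DESeq2 or limma-voom and the block, and 4 and 1 with no filter on low counts. The next highest median, 0.41, was that of 21 tested genes of calcineurin, NFAT and CAMTA signalling. Of these 16 were higher in the mutant, and 1 passed in either fit.

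**Figure D3:**
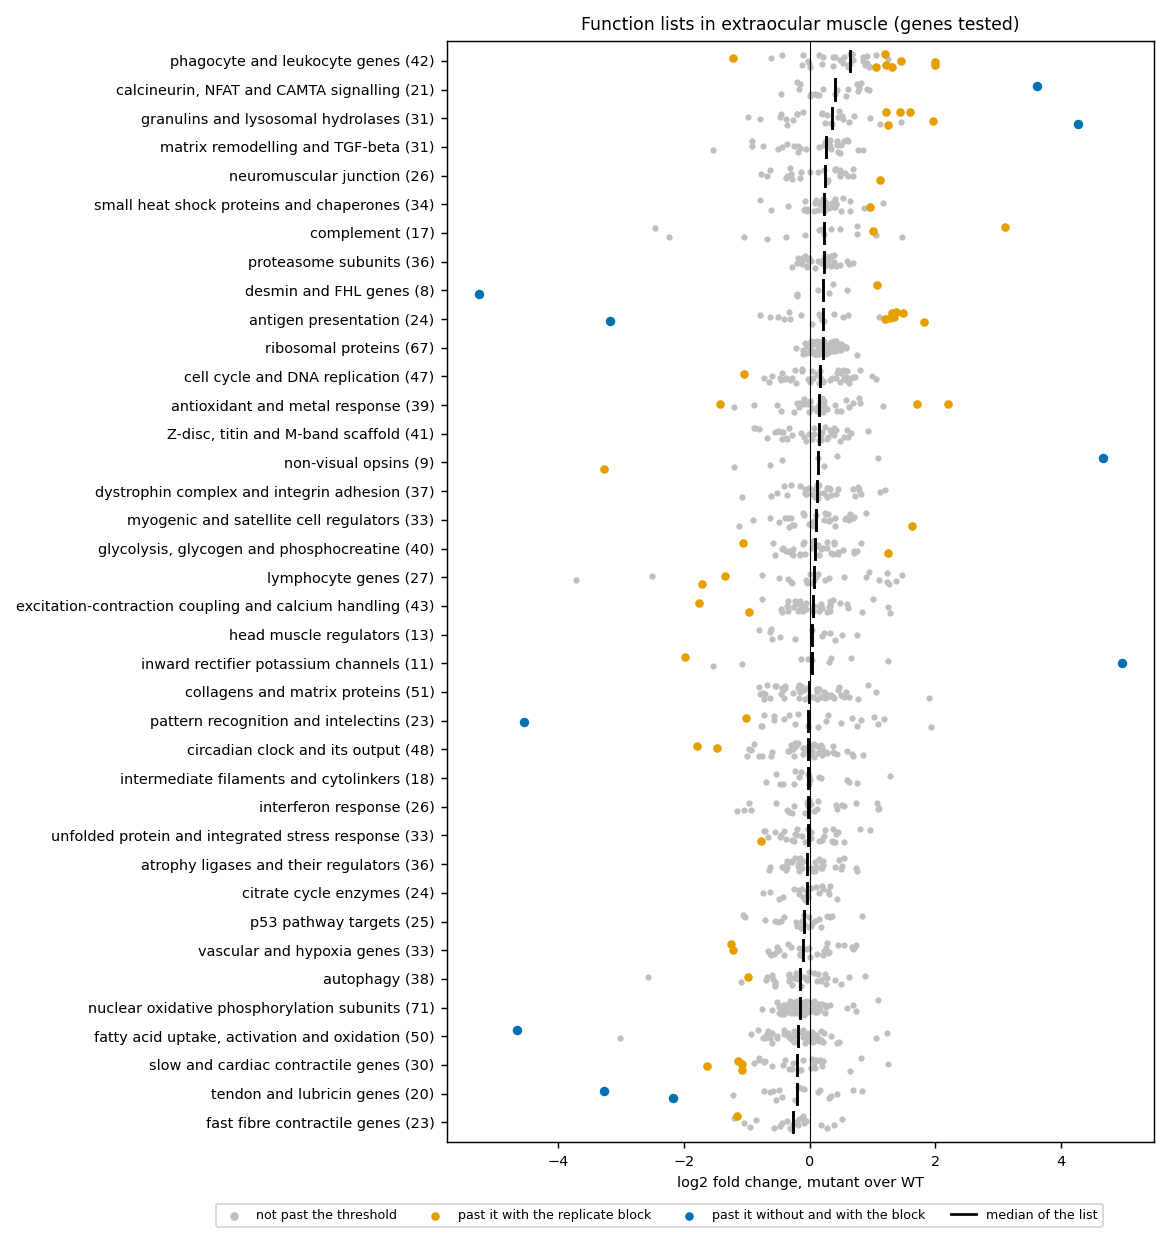
Log2 fold change, mutant over WT, of every tested gene in the 38 function lists, with the number of genes tested in brackets and a black bar at each median. Orange points passed the threshold with the replicate block, blue points without and with it. Lists run downwards by their median, from 0.65 for phagocyte and leukocyte genes to -0.27 for fast fibre contractile genes.

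The 7 leukocyte genes that rose with the block span transcription factors, the oxidase of phagocytes and signalling receptors. The gene ncf4, which encodes a cytosolic subunit of that oxidase, had 1.64, 0.947 and 1.26 CPM in mutant EOM, against 0.415, 0.193 and 0.357 CPM in WT EOM (blocked log2 fold change 2.02, SE 0.57, adjusted p = 0.0213). The macrophage transcription factor gene irf8 had 30.1, 15.8 and 10.24 CPM in mutant EOM, against 6.75, 7.86 and 5.85 CPM in WT EOM (1.32, SE 0.33, adjusted p = 0.00621). The myeloid transcription factor gene spi1a had 14.7, 13 and 13.9 CPM in mutant EOM, against 6.82, 5.42 and 7.81 CPM in WT EOM (1.06, SE 0.33, adjusted p = 0.0412). For ncf4, irf8 and spi1a the genotypes did not overlap. Rises were also found for rac2, a GTPase of blood cells (1.08, SE 0.33), fcer1gl, a signalling chain of Fc receptors (1.19, SE 0.33), and csf3r, the receptor for granulocyte colony stimulating factor (1.46, SE 0.43), whose groups overlapped. The one fall was that of timd4, a macrophage receptor for dying cells, with 14.6, 6.23 and 12.5 CPM in mutant EOM, against 28.6, 16.7 and 32.2 CPM in WT EOM (-1.26, SE 0.33, adjusted p = 0.00915). Summed over the list, levels were 762, 632 and 480.2 CPM in mutant EOM and 506, 371 and 363 CPM in WT EOM, which overlap but are higher in the mutant within every number. Without the libraries numbered 1, 2 and 3 the rises in this list numbered 1, 3 and 2.

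Of the granulins and lysosomal hydrolases, 21 of 31 tested genes were higher in the mutant (median 0.36). With the block 6 rose and 0 fell, and 3 rose when any of the 3 pairs was left out. Granulins are secreted growth factor precursors that are also processed in lysosomes. The granulin gene grna had 26.8, 56.0 and 44.1 CPM in mutant EOM, against 13.5, 14.9 and 13.5 CPM in WT EOM (1.54, SE 0.33, adjusted p = 4.93e-04 with the block). Its short relative grna.1 had 72.9, 113 and 20.7 CPM in mutant EOM, against 27.1, 18.1 and 7.43 CPM in WT EOM (1.84, SE 0.34, adjusted p = 1.18e-05 with the block). Another relative, grna.2, had 1.5, 4.15 and 0.418 CPM in mutant EOM, against 0.154, 0.0751 and 0.0866 CPM in WT EOM, and passed without the block too (4.26, SE 0.77, adjusted p = 0.00689). All 3 were higher in each mutant library than in the WT library of its number. The cathepsin genes ctss2.1 (1.33, SE 0.33, adjusted p = 0.00526), ctss2.2 (1.18, SE 0.33, adjusted p = 0.0178) and ctsc (1.13, SE 0.33, adjusted p = 0.0281), which encode lysosomal proteases, also rose with the block and had no overlap between the genotypes.

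Antigen presentation genes moved both ways. Of 24 tested, 7 rose and 1 fell with the block, and 1, mhc1uba, passed without it; mhc1zda, which fell, is not in this list. The invariant chain genes cd74a and cd74b, whose products accompany class II histocompatibility molecules, had the highest levels of this list among those that rose. Levels of cd74a were 1485, 941 and 391 CPM in mutant EOM, against 419, 351 and 316 CPM in WT EOM (1.19, SE 0.34, adjusted p = 0.0253 with the block). Levels of cd74b were 513, 344 and 169.6 CPM in mutant EOM, against 181, 132 and 92.6 CPM in WT EOM (1.25, SE 0.33, adjusted p = 0.0106 with the block). In both, mutant library 3 overlapped the WT range and the rise was seen within each number. The immunoproteasome subunit genes psmb8a (1.14, SE 0.33), psmb9a (1.25, SE 0.36), psmb10 (1.2, SE 0.33) and psmb12 (1.69, SE 0.37) and the class II gene mhc2dab (1.83, SE 0.35) rose too, while none of the 36 genes of the constitutive proteasome passed in either fit (edgeR, 0 with an unadjusted p below 0.05, 0 with DESeq2 and the block). Without the libraries numbered 1, 2 and 3 the rises among antigen presentation genes numbered 0, 3 and 1. In the complement list, c1qb (1.09, SE 0.33, adjusted p = 0.0331) and c3b.1 (3.10, SE 0.75, adjusted p = 0.0034) rose with the block among 17 tested. No complement gene rose without the libraries numbered 1 or 3, 1 fell without those numbered 3, and 3 rose and 1 fell with DESeq2 and the block. Of the lymphocyte genes, 2 of 27 fell with the block, the immunoglobulin heavy chain gene ighm (-1.64, SE 0.42, adjusted p = 0.00754) and ebf1b (-1.88, SE 0.47, adjusted p = 0.00514), and no fall was left without the libraries numbered 1 or 2. None of the 26 tested genes of the interferon response list passed in either edgeR fit, 2 had an unadjusted p below 0.05, and 1 rose with DESeq2 and the block; ifi27.2, which rose, is not in that list.

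**Figure D4:**
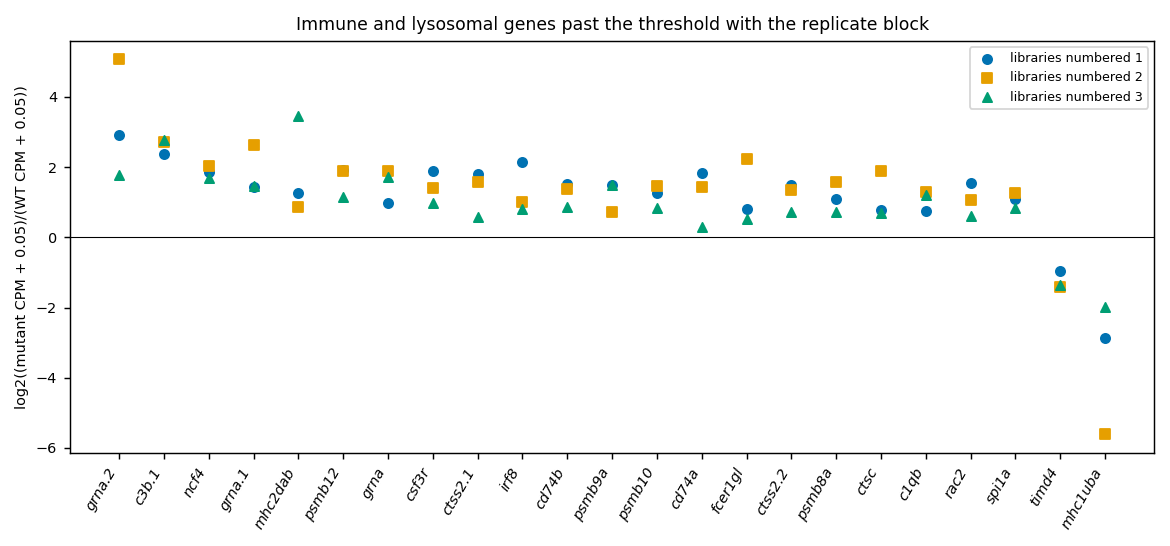
Log2 ratio of the mutant to the WT library of the same number, with 0.05 CPM added to both, for 23 genes of the phagocyte, granulin and lysosome, antigen presentation and complement lists that passed the threshold with the replicate block. The genes that rose lie above 0 for all 3 numbers, and timd4 and mhc1uba lie below 0 for all 3.

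Tendon and lubrication genes held the only falls that passed among matrix genes. The gene prg4a (ENSDARG00000010482.8), which encodes lubricin, a glycoprotein that lets tendon and joint surfaces glide, had 1.11, 1.76 and 1.45 CPM in mutant EOM, against 14.1, 16.4 and 11.2 CPM in WT EOM (-3.27, SE 0.47, adjusted p = 4.36e-04). The gene thbs4a, a thrombospondin gene, had 2.67, 1.33 and 3.76 CPM in mutant EOM, against 9.23, 17.4 and 8.67 CPM in WT EOM (-2.18, SE 0.49, adjusted p = 0.0467). Neither gene's groups overlapped. They were 2 of 20 tendon genes tested, whereas of all tested genes 0.181% fell without the block and 2.02% with it. The tendon transcription factor gene scxa had 0.493, 0.303 and 0.472 CPM in mutant EOM and 1.17, 0.934 and 0.877 CPM in WT EOM without passing (adjusted p = 0.925; 0.289 with the block). Summed levels of fibroblast and tenocyte markers overlapped, at 1361 to 2850.5 CPM in mutant EOM and 1346 to 1923 CPM in WT EOM. Among 51 collagen and matrix protein genes and 31 genes of matrix remodelling none passed in either fit, with 1 and 0 at an unadjusted p below 0.05, and the medians were 0.00 and 0.26.

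Lubricin and myo5b were also the 2 genes, of 20041 tested (0.00998%), whose genotype effect differed between EOM and trunk muscle by an interaction term over all 12 libraries. For prg4a the effect was -3.27 in EOM and 1.13 in trunk, a difference of -4.40 (SE 0.48, adjusted p = 0.00308). For myo5b it was -3.74 in EOM and 0.98 in trunk, a difference of -4.71 (SE 0.60, adjusted p = 0.0103), which did not pass without WT trunk library 1 or 2 (adjusted p = 0.0742 and 0.0574). For thbs4a the difference was -3.03 and did not pass (adjusted p = 0.246). Trunk and EOM share no libraries, but the titles do not say whether they share fish, and the interaction test takes the 12 libraries as independent. Both muscles compare the same genotypes, so any variant that goes with the genotype would enter both. Of the 57 genes called in EOM, 53 were tested in trunk, and 50 (94.3%) had the same direction there, 44 of them with an unadjusted p below 0.05 in trunk (83.0%). Of the 525 genes that passed in EOM with the block alone, 496 were tested in trunk, with 372 (75.0%) in the same direction and 181 (36.5%) also below an unadjusted p of 0.05. Over the 17310 genes tested in both muscles these shares were 56.6% and 9.8% with the blocked EOM values. In trunk itself 13.1% of tested genes had an unadjusted p below 0.05 in either direction and 0.0333% passed the adjusted threshold.

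The contractile apparatus changed little at the threshold, and the genes that did pass with the block fell. Of 30 genes of slow and cardiac-type contraction none passed without the block (3 had an unadjusted p below 0.05) and 4 fell with it. The slow myosin heavy chain gene smyhc1 had 63.7, 37.3 and 86.4 CPM in mutant EOM, against 159, 83.5 and 153 CPM in WT EOM (-1.1, SE 0.33, adjusted p = 0.0307 with the block). The cardiac-type troponin T gene tnnt2a had 32.2, 11.2 and 36.6 CPM in mutant EOM, against 64.9, 48.8 and 55.6 CPM in WT EOM (-1.24, SE 0.33, adjusted p = 0.0136 with the block). Mutant library 2 was the lowest for both genes. Falls with the block were also found for tnnt2e (-1.26, SE 0.35, adjusted p = 0.0208) and for the atrial myosin gene myh6 (-2.17, SE 0.53, adjusted p = 0.0049). No gene of this list passed without the libraries numbered 1 or 2, 4 did without those numbered 3, and 2 did with DESeq2 and the block. Of 23 fast fibre genes, 19 were lower in the mutant (median -0.27), and 1 passed with the block, the myosin heavy chain gene myha, with 928, 639 and 926 CPM in mutant EOM, against 2077, 2142 and 1367 CPM in WT EOM (-1.16, SE 0.35, adjusted p = 0.0362). That list held no fall with RLE size factors or when any of the 3 pairs was left out, and 1 rise without the libraries numbered 1. For comparison with both lists, 2.02% of all tested genes fell with the block. Reads shared between the myosin genes are left out of the counts, so the levels of single myosins are uncertain.

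With the block, 2 calcium storage genes of the sarcoplasmic reticulum fell, of 43 tested genes of excitation-contraction coupling, compared with 2.02% of all tested genes. The gene hrc, which encodes the histidine-rich calcium binding protein of that compartment, had 141, 47.1 and 192 CPM in mutant EOM, against 395, 413 and 473 CPM in WT EOM (-1.96, SE 0.35, adjusted p = 4.71e-06 with the block; 0.375 without it). The calsequestrin gene casq1a had 107.2, 34 and 77.1 CPM in mutant EOM, against 158, 154 and 115 CPM in WT EOM (-1.09, SE 0.34, adjusted p = 0.0407 with the block). The genotypes did not overlap for either gene, and mutant library 2 was again the lowest. The other 41 tested genes of excitation-contraction coupling did not pass, and the list held 1 fall in place of 2 with RLE size factors, no filter, DESeq2 or any pair left out. Among the inward rectifiers, kcnj12b went the other way from kcnj13, with 1.46, 1.29 and 2.33 CPM in mutant EOM, against 5.74, 7.16 and 7.29 CPM in WT EOM (-2.02, SE 0.38, adjusted p = 1.87e-05 with the block). The membrane repair gene anxa6 fell as well with the block (-2.61, SE 0.36, adjusted p = 8.75e-10), with 92.1, 37.8 and 5.26 CPM in mutant EOM, against 255, 153 and 122 CPM in WT EOM, but did not pass with DESeq2 and the block (adjusted p = 0.116).

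Genes of muscle formation and innervation showed single rises with the block. Among all tested genes 1.08% rose with it, so such single calls do not by themselves set a list apart. The myoblast fusion gene mymk had 10.8, 5.15 and 6.83 CPM in mutant EOM, against 4.14, 1.18 and 2.08 CPM in WT EOM (1.73, SE 0.36, adjusted p = 2.63e-04 with the block), the only one of 33 tested myogenic and satellite cell genes to pass. The myogenic factors myog and myod1 were at 36.3 to 84.5 and 45.9 to 97.2 CPM in mutant EOM and at 28.1 to 42.6 and 28.0 to 58.3 CPM in WT EOM, without passing (adjusted p = 0.162 and 0.32 with the block). At the neuromuscular junction, chrng, the gamma subunit of the embryonic acetylcholine receptor, had 11.9, 5.91 and 8.68 CPM in mutant EOM, against 2.98, 3.79 and 5.36 CPM in WT EOM (1.1, SE 0.35, adjusted p = 0.0499 with the block), 1 of 26 genes tested. That call was lost with DESeq2, with no filter on low counts and without the libraries numbered 1 or 3. Both genes had no overlap between the genotypes. Of 13 head muscle regulators none passed in either fit, and none had an unadjusted p below 0.05.

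Among the structural partners of desmin no difference passed the threshold. None of 18 other intermediate filament and cytolinker genes, 37 genes of the dystrophin complex and integrin adhesion or 41 genes of the Z-disc, titin and M-band passed in either fit, with 1, 0 and 0 at an unadjusted p below 0.05 and medians of -0.02, 0.12 and 0.14. With DESeq2 and the block none of these lists held a call. With the block and either limma-voom or RLE size factors, 1 gene of the dystrophin and integrin list rose. Without the libraries numbered 2 that list held 1 rise and 1 fall with the block. The nuclear lamin gene lmna had 23.2, 30.9 and 37.0 CPM in mutant EOM, against 18.7, 16 and 19.4 CPM in WT EOM, without overlap but short of the threshold (0.75, SE 0.42, adjusted p = 0.968; 0.249 with the block). The nestin gene nes had 25, 9.89 and 47.2 CPM in mutant EOM and 41.6, 45.0 and 46.4 CPM in WT EOM (adjusted p = 0.999; 0.103 with the block). Of 34 chaperone genes, 26 were higher in the mutant (median 0.23) and 1, the heat shock protein gene hspa8b, rose with the block, with 141, 109.6 and 101.1 CPM in mutant EOM, against 42.6, 98.1 and 39.1 CPM in WT EOM (1.09, SE 0.33, adjusted p = 0.0402). That call was lost with no filter on low counts and without the libraries numbered 1 or 3, and 1.08% of all tested genes rose with the block.

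Few genes of energy metabolism and protein turnover passed. Of 71 nuclear oxidative phosphorylation genes, 21 were higher in the mutant without the block (median -0.16) and 12 with it. None passed in either fit and 1 had an unadjusted p below 0.05. Without the libraries numbered 1, 2 and 3 the blocked fit had 15 of 72, 7 of 71 and 25 of 72 higher. The summed level of these genes was lowest in the libraries numbered 3, at 46852, 49928 and 18498 CPM in mutant EOM and 59755, 41290 and 25544 CPM in WT EOM. None of 24 citrate cycle genes, 36 atrophy genes, 25 p53 target genes or 67 ribosomal protein genes passed in either fit, with 0, 0, 1 and 0 at an unadjusted p below 0.05, nor with DESeq2 or limma-voom and the block. Most ribosomal protein genes were higher in the mutant, 59 of 67 without the block (median 0.20) and 66 of 67 with it. Without the libraries numbered 2 the blocked fit had 30 of 67 higher. In glycogen metabolism the glycogenin gene gyg1b rose (1.13, SE 0.33, adjusted p = 0.0286) and the phosphorylase kinase gene phkg1b fell (-1.24, SE 0.33, adjusted p = 0.0124) with the block. The autophagy gene becn1, 1 of 38 tested in its list (-1.26, SE 0.36, adjusted p = 0.0225), and the stress transcription factor gene ddit3, 1 of 33 (-1.23, SE 0.35, adjusted p = 0.0217), fell with it. Among all tested genes 1.08% rose and 2.02% fell with the block. Neither the autophagy nor the unfolded protein list held a call with DESeq2 and the block or without the libraries numbered 1, and the unfolded protein list held none without those numbered 2. Without the libraries numbered 1 or 2 the glycolysis and glycogen list held no call. In the antioxidant list txnb, a thioredoxin gene, rose to 15.7, 11.5 and 6.46 CPM in mutant EOM, against 3.85, 2.48 and 1.01 CPM in WT EOM (2.30, SE 0.35, adjusted p = 4.1e-08 with the block), and gsta.1, a glutathione transferase gene, fell (-1.75, SE 0.34, adjusted p = 4.75e-05 with the block).

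Of 48 clock genes tested, 2 fell with the block, compared with 2.02% of all tested genes. So small a count does not by itself set the list apart. The gene dbpb, a clock-controlled transcription factor gene, had 1.83, 2.46 and 3.2 CPM in mutant EOM and 7.28, 1.79 and 16.8 CPM in WT EOM (-1.37, SE 0.38, adjusted p = 0.0183 with the block). The clock repressor gene ciarta had 12.2, 4.53 and 15.4 CPM in mutant EOM and 33.0, 4.71 and 51.4 CPM in WT EOM (-1.1, SE 0.34, adjusted p = 0.0391 with the block). For both genes WT library 2 lay within or near the mutant range, so the difference rests on the libraries numbered 1 and 3. The other 46 did not pass, none of the 48 passed with DESeq2 and the block or without the libraries numbered 1 or 3, and the labels give no time of dissection.

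Most blood and vessel markers had lower values in mutant EOM. For comparison with the counts below, 1.08% of all tested genes rose and 2.02% fell with the block. Of 13 erythrocyte genes tested, 12 were lower in the mutant (median -0.89), and 3 fell with the block, among them the globin gene hbaa2, with 30.1, 23.8 and 13.2 CPM in mutant EOM, against 156, 43.9 and 60 CPM in WT EOM (-1.82, SE 0.34, adjusted p = 1.84e-05), and the erythroid nuclear gene hemgn (-1.38, SE 0.33, adjusted p = 0.00273). The summed erythrocyte level was 2139.5, 1986 and 739 CPM in mutant EOM and 6393, 1793 and 1779 CPM in WT EOM, so that it was higher in the mutant within number 2 and lower within numbers 1 and 3. Of 19 endothelial genes 14 were lower, with a summed level of 339 to 449 CPM in mutant EOM and 515 to 549 CPM in WT EOM. The endothelial genes that fell with the block were clec14a (-1.40, SE 0.33), plvapa (-1.12, SE 0.34) and the cadherin gene cdh5 (-1.18, SE 0.33), together with dll4, a Notch ligand gene of arteries (-1.45, SE 0.34), and angpt2a, an angiopoietin gene (-1.90, SE 0.52). The genotypes overlapped for cdh5. The endothelial marker kdrl was lower in the mutant within numbers 1 and 2 and higher within number 3. The marker pecam1a was slightly higher in the mutant within numbers 1 and 2 and lower within number 3. The fall was thus not shared by all endothelial markers. No endothelial marker passed without the libraries numbered 2, and neither dll4 nor angpt2a passed without those numbered 1 or 2. Of 36 keratinocyte and mucosa genes 25 were lower in the mutant, and with the block krt5 (-1.26, SE 0.35, adjusted p = 0.0205) and krt1-19e (-1.78, SE 0.45, adjusted p = 0.00672) fell while s100w rose (1.09, SE 0.33, adjusted p = 0.037). Neither fall was left with DESeq2 and the block or without the libraries numbered 1. The summed level of the list was 2949, 2560.1 and 1212 CPM in mutant EOM and 3680.0, 1821 and 1621 CPM in WT EOM, again higher in the mutant within number 2 alone. Other marker lists had higher summed levels in mutant EOM, without overlap. Iridophore and xanthophore genes summed to 495 to 615 CPM in mutant EOM and 359 to 463 CPM in WT EOM. Neuron genes summed to 83.5 to 156 CPM in mutant EOM and 68.3 to 80.0 CPM in WT EOM. Cartilage and bone genes summed to 242 to 304 CPM in mutant EOM and 186 to 239 CPM in WT EOM. Of the tested genes in these lists, 8 of 13, 10 of 26 and 9 of 22 were higher in the mutant. Whether a change in the content of such cells or of blood, vessel or skin had a part in the other differences was not tested. All 5 tested lens genes had lower values in the mutant (median -1.02) and none passed in either fit (edgeR, 1 with an unadjusted p below 0.05, 0 with DESeq2 and the block), with a summed level of 4.39 to 5.87 CPM in mutant EOM and 6.14 to 9.06 CPM in WT EOM. The defining lens genes cryaa, cryba1b and bfsp2 were at 0 to 0.227 CPM in mutant EOM and 0 to 0.154 CPM in WT EOM. The melanocyte gene tyr had no read in any mutant library and 8 reads over the WT libraries.

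The chromosomal neighbours of the mutated genes were examined because fhl2b lies close to desmb. In the RefSeq gene order of zebrafish, fhl2b is the 12th protein-coding gene from desmb. Its paralog fhl2a, which did not pass in either fit, is the 18th from desma. Among the 50 genes on either side of desmb, 63 were tested, and 8 of them (12.7%) passed with the block, against 3.10% of all tested genes. The 8 genes include fhl2b, which prompted the look, so this share is a description and no test of an excess. These were slc15a1b, si:ch73-71c20.5, casp20 and dytn on one side, which fell, and fhl2b, tmtops2a, st6gal2b and ackr3b on the other, which rose. The last 4 lie within 22 genes of desmb. The sialyltransferase gene st6gal2b had 1.99, 1.61 and 1.55 CPM in mutant EOM, against 0.292, 0.3 and 0.768 CPM in WT EOM (2.04, SE 0.52, adjusted p = 0.007 with the block). The dystrotelin gene dytn had 0.141, 0 and 0.0445 CPM in mutant EOM, against 0.677, 0.612 and 0.390 CPM in WT EOM (-3.41, SE 1.01, adjusted p = 0.0308 with the block). Around desma 2 of 63 tested neighbours (3.17%) passed with the block, the tubulin gene tuba8l5 (1.34, SE 0.35) and zgc:113337 (1.15, SE 0.34), close to the share among all genes. Whether the mutation, a linked variant carried along with it or the loss of desmin goes with the differences near desmb cannot be told apart in this design, in which variants linked to the mutations go with the genotype.

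**Figure D5:**
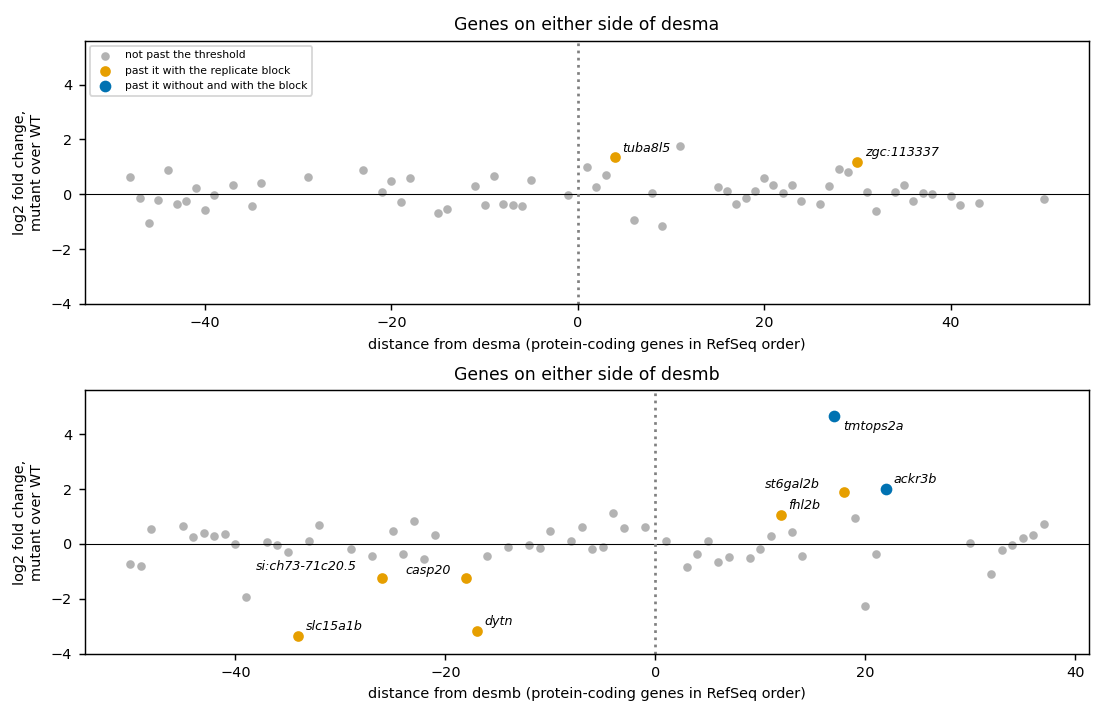
Log2 fold change in EOM, mutant over WT, of the tested genes up to 50 protein-coding genes either side of desma (top) and desmb (bottom), by their place in the RefSeq gene order. Orange points passed with the replicate block and blue points without and with it. Around desmb 8 of 63 tested genes passed with the block, and around desma 2 of 63 did.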

How the data were processed

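Per the labels' protocols, muscle was dissected, total RNA extracted with TRIzol and sequenced as poly-A selected stranded libraries. What the authors deposited is 1 table of raw gene counts for each library. The submitters' processing notes name STAR, DESeq2 and the build GRCz11, without versions. The file layout counts uniquely mapping reads, so a read that maps to several gene copies is not counted. The gene-strand column, which held 96.43 to 97.26% of stranded reads, gave all values, and summary lines (reads outside genes 4.43 to 9.24%) stayed out of library sizes.

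Counts of the 6 EOM libraries were fitted with the quasi-likelihood test of edgeR 4.0.16 (R 4.3.3; TMM, default filter with minimum count 10 and minimum total 15, robust dispersions, Benjamini-Hochberg adjustment over all genes tested, threshold 0.05). SE was obtained by dividing the size of the log2 fold change by the root of its F value. CPM were scaled by TMM over the 6 libraries, with factors of 0.743 (mutant library 1) to 1.459 (mutant library 3). Those of the posterior Hox genes were scaled over all 12 libraries. The fit was repeated with the replicate number as a block, since same-numbered libraries deviated together (correlations 0.43, 0.39 and 0.68, all over 0.1). Mutant library 2 and WT library 1, which differ in number, were over 0.1 too (0.27). The interaction (EOM effect minus trunk effect) used all 12 libraries without a block. DESeq2 1.42.0 and limma 3.58.1 were alternatives. The procedure was run on simulated data with the same spread for all genes and no effect of library number, unlike these libraries. It is therefore no test of the blocked fit under such effects.

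Symbols came from a gene name table, which covers 29201 of 32520 genes. Of 11997 symbols written in capitals, 10600 were resolved to a zebrafish symbol where exactly 1 RefSeq candidate (assembly GRCz12tu) lay on the chromosome shared by at least 80% of 5 or more named genes within 25 genes either side, and 1397 stayed in capitals. The check placed 99.5% of 9586 uniquely named genes on the same chromosome. No coordinates are given. Genes named are the 12 largest rises and falls with a symbol, at least 0.5 CPM in the higher group and no overlap, up to 6 each way for the block (at least 5 CPM), the 4 list members of smallest p, list members past the threshold, interaction calls and called neighbours. Others (ackr3b, ifi27.2, crym, GNPAT, gstk4, acbd4, taco1, mhc1zda, fzd9a, rxfp2a, ccdc39) were picked from the 57 after their values were seen. The comparison, the lists and the named genes were chosen with earlier results of these data known. Results for 2 genes are not reported here.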

Additional observations from a re-analysis of the deposited data

Results flagged for a closer look

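The genotype effect of prg4a differed between the muscles by a test of the difference itself: the effect in EOM minus that in trunk was -4.4 on the log2 scale (edgeR interaction, adjusted p = 0.00308), with lower levels in mutant EOM and no change past the threshold in mutant trunk (trunk log2 fold change 1.13). The same test singled out myo5b, at -4.71 (adjusted p = 0.0103; trunk log2 fold change 0.98).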

How the results depend on the processing

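The count of 57 genes was 59 with RLE size factors and 50 with unstranded counts, but 2 with library totals alone, 120 with no filter, 125 with DESeq2, 27 with limma-voom, 582 with the replicate block, 34 with all 12 libraries in 1 fit, and 0 to 78 when single libraries were left out. Without replicate 3 of both genotypes it was 12, and with DESeq2 without mutant library 1 it was 94, both chosen after seeing the data. Pairing by replicate number passed the check given with the methods, so the blocked fit of fhl2b (1.07, adjusted p = 0.0404) and of the lists is printed beside the results. That check has a low bar and reads the same values that are tested, with 3 libraries per group. It cannot show that libraries of the same number were matched. The blocked count of 582 was 586 with RLE, 457 with no filter, 501 with DESeq2 and 531 with limma-voom, and 157, 391 and 332 without the pairs numbered 1, 2 and 3. The log2 fold change of desma stayed at -5.53 to -4.80 when single libraries were left out. The interaction count of 2 was 13 with DESeq2, 1 with limma-voom, 1 with unstranded counts, 3 with no filter, 3 with the replicate block nested in tissue and 1 to 3 when single libraries were left out. Of the values of 33 named genes under alternatives to the unblocked fit, 390 kept their side of the threshold, 136 no longer passed, 1 newly passed, and none turned round. These genes were desma, fhl2a, fhl2b, the 12 largest rises and falls, list members past the threshold without the block, prg4a, myo5b and ackr3b. Values of ifi27.2, crym, GNPAT, gstk4, acbd4, taco1, mhc1zda, fzd9a, rxfp2a and ccdc39 were not followed under the alternatives. Causes were not tested. Low counts limit the fold changes of some genes. Of the 57, 13 had fewer than 10 reads over the 3 mutant libraries, and 4 had fewer than 10 over the 3 WT libraries. In the higher group 43 of the 57 genes lie below 10 CPM.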
